A study of Homo sapiens with 19 samples.

Results

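Divergent protein-coding promoter pairs are places in the genome where a pair of coding genes start close together and run away from each other on opposite strands. They were found in the GENCODE annotation of hg38 (chromosomes 1 to 22 and X) as a minus-strand gene lying to the left of a plus-strand gene, with gene-level 5′ ends at most 1000 bp apart and no overlap between the genes. The rule gave 887 pairs, which involved 1710 of 19970 coding genes (8.56%). Because 62 genes belonged to 2 pairs and 1 gene to 3, the pairs fell on 824 separate loci. Each pair was scored over the interval between its starts extended by 500 bp on each side, and the 18260 remaining coding promoters over 500 bp on each side of their start, which made 19147 windows in all. No measured value entered the choice of pairs.

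Chromatin immunoprecipitation followed by sequencing (ChIP-seq) had been carried out with an antibody against H3K27ac, the acetylated form of lysine 27 on histone H3, in human leukaemia cell lines. HL-60 and Molm13, both from acute myeloid leukaemia (AML), were not transduced. OCI-AML3, also from AML, and K562, from chronic myeloid leukaemia in blast crisis, carried a lentiviral dCas9-KRAB fusion (dead Cas9 joined to a repressor domain) with an mCherry reporter and an empty guide RNA vector with a BFP reporter, and had been sorted for both reporters, so that vector and line cannot be told apart in these cells. Each line was represented by 1 library without replicates, the sequencing depth behind the peak lists was unknown, and the intervals given with percentages cover counting error over windows only. HL-60 had the shortest list (20814 peaks), followed by Molm13 (35206), K562 (37484) and OCI-AML3 (37606). As a check of the labels, the starts of 4 erythroid genes, GATA1, HBG1, KLF1 and EPOR, overlapped a peak in K562 and 0 of them did in the AML lines, whereas of 6 myeloid genes 4 did so in each of HL-60 and Molm13, 5 in OCI-AML3 and 2 in K562. CSF1R, the receptor for macrophage colony-stimulating factor, had no peak at its start in any line.

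Divergent promoters usually lie in CpG islands, stretches of DNA that keep their CG dinucleotides and stay unmethylated in most cells, and they often serve genes that nearly every cell uses, such as those for histones, DNA repair and mitochondrial proteins. RNA polymerase II is loaded in both directions, and the DNA between the starts is commonly free of nucleosomes. H3K27ac is written by the acetyltransferases p300 and CBP on the nucleosomes that flank active promoters and enhancers, so that a peak at a divergent promoter reads the state of the shared region and does not tell which gene of the pair is transcribed.

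The DNA between the starts of 7 pairs is shown because these pairs span the outcomes described below: pairs marked in all 4 lines (NUDCD2/HMMR, PPAT/PAICS and H2BC11/H2AC11), in none (H2AC1/H2BC1 and COL4A4/COL4A3), in the AML lines but not K562 (GPATCH2/SPATA17) and in K562 alone (FUT1/FGF21). Sequences are from the plus strand of hg38, 5′ to 3′, and run from the base after the minus-strand start to the base before the plus-strand start, so that the minus-strand gene begins at the left edge and the plus-strand gene at the right. Capitals mark letters that match, on either strand, a motif from the set searched: GGGCGG (bound by SP1), CCAAT (NF-Y), GCATGCGC (NRF1) or TATAAA (the TATA box).
NUDCD2/HMMR (chr5:163460103-163460202): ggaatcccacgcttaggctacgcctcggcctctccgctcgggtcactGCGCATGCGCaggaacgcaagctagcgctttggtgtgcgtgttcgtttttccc
PPAT/PAICS (chr4:56435616-56435740): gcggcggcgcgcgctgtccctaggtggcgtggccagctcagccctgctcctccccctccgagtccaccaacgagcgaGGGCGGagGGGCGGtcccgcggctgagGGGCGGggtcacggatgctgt
H2BC11/H2AC11 (chr6:27132796-27133042): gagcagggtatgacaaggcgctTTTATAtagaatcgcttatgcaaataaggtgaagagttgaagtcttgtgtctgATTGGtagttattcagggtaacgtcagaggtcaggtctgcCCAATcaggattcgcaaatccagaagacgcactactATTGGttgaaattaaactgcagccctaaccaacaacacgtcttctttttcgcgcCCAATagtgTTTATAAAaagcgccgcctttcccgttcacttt
H2AC1/H2BC1 (chr6:25726563-25726776): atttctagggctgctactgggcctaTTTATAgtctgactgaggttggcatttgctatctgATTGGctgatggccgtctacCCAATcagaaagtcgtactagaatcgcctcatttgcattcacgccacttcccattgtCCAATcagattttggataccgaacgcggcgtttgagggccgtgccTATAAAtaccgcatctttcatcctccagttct
COL4A4/COL4A3 (chr2:227164454-227164623): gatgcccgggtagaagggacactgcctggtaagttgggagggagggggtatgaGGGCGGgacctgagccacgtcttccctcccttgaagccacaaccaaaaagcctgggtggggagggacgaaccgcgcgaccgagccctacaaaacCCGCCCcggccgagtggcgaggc
GPATCH2/SPATA17 (chr1:217631091-217631323): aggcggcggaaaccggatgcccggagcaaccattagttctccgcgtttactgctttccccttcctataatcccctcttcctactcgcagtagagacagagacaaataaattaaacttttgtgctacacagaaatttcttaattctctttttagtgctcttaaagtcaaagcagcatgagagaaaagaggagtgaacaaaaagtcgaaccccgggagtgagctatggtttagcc
FUT1/FGF21 (chr19:48755391-48755523): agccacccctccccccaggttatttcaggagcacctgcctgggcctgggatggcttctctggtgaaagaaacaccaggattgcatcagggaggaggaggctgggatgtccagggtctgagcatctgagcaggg
Both histone intervals held TATAAA matches near each end and CCAAT matches between them, including that of H2AC1/H2BC1, which had no peak in any line. The strongly marked H2AC15/H2BC15 and H2BC4/H2AC6, described below, held CCAAT but no TATAAA match between their starts. The PPAT/PAICS interval held 3 GGGCGG matches and the NUDCD2/HMMR interval a GCATGCGC match on each strand. In FUT1/FGF21 the 133 bp held no CG dinucleotide and none of the motifs, and GPATCH2/SPATA17 also held none of the motifs.

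To describe the pairs before turning to chromatin, their spacing and base composition were read from the reference. The starts lay between 1 and 995 bp apart with a median of 132 bp (quartiles 69.0 and 248.5 bp), and 666 pairs (75.1%) were at most 250 bp apart. The share of coding genes in a pair ranged from 5.45% on chromosome 21 to 12.2% on chromosome 14. A window was called CpG-rich when the 500 bp on each side of its centre had a GC content of at least 50% and an observed/expected CpG ratio of at least 0.6. By this measure 797 pairs (89.9%) were CpG-rich, compared with 10081 other promoters (55.2%), and the median CpG ratio was 0.784 in the pairs and 0.668 in the others. Coding promoters outside the pairs that had a divergent long non-coding RNA (lncRNA) start within 1000 bp, 1414 in number, resembled the pairs more closely, with 87.8% CpG-rich. Of 14 pairs looked up as classical examples, 7 met the rule, among them NPAT/ATM, PPAT/PAICS and TK1/AFMID. In SURF1/SURF2 and HSPD1/HSPE1 the annotated gene ends overlapped, and FANCA/SPIRE2 lay 1202 bp apart, so these did not meet it.

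To find out whether divergent pairs carried H3K27ac more often than other coding promoters, windows were called marked when they overlapped a peak by at least 1 bp. In HL-60, 683 of 887 pairs were marked (77.0%, 95% CI 74.1 to 79.7), against 36.8% of all coding promoter windows. In Molm13 769 pairs were marked (86.7%, 84.3 to 88.8), against 45.6% of all windows. In OCI-AML3 the number was 789 (89.0%, 86.7 to 90.8) against 49.7%, and in K562 780 (87.9%, 85.6 to 89.9) against 48.3%. The pairs were thus above the background of all coding windows in each line, and HL-60, the line with the shortest list, had the lowest share of marked pairs. Of the other promoters taken by themselves, 34.9% (HL-60), 43.6% (Molm13), 47.8% (OCI-AML3) and 46.4% (K562) were marked. The difference between pairs and other promoters was 42.1, 43.1, 41.1 and 41.5 percentage points in HL-60, Molm13, OCI-AML3 and K562, with a mean of 42.0 ± 0.850 (SD, n = 4 lines), and was positive in 4 of 4 lines (exact two-sided sign-flip permutation test over lines, p = 0.13, adjusted p = 0.13 over 4 tests). With 4 lines this is the smallest p the test allows, so it could not reach the 0.05 threshold. The spread between lines was small beside the difference itself.

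The difference was smaller among windows of like CpG content. Among CpG-rich windows the pairs were marked at 81.1%, 90.0%, 92.1% and 91.2% in HL-60, Molm13, OCI-AML3 and K562, and the other promoters at 52.6%, 63.1%, 69.3% and 66.6%. The mean difference was 25.7 ± 2.48 percentage points (SD, n = 4 lines), positive in 4 of 4 lines (exact sign-flip permutation test, p = 0.13, adjusted p = 0.13). The 90 CpG-poor pairs were marked less often than the CpG-rich ones, with 41.1% in HL-60 and 57.8% to 61.1% in the other lines, but CpG-poor promoters outside the pairs stood at 13.0% in HL-60 and at 19.6% to 21.5% in the other lines. Compared with promoters that had a divergent lncRNA, of which HL-60 marked 58.9%, Molm13 67.9%, OCI-AML3 73.1% and K562 70.5%, the pairs were higher by 17.5 ± 1.27 percentage points (SD, n = 4 lines; 4 of 4 lines; exact sign-flip permutation test, p = 0.13, adjusted p = 0.13). Closer still to the pairs were the 1768 other promoters with another coding start within 1000 bp on either strand. They were marked at 64.4% (HL-60), 73.2% (Molm13), 77.6% (OCI-AML3) and 77.0% (K562), and this difference was not tested. Divergent coding genes whose ends overlap did not meet the rule and counted as other promoters unless in another pair. The windows of pairs contained the starts of both genes and were thus larger than those of other promoters, with a median of 1133 bp.

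**Figure D1:**
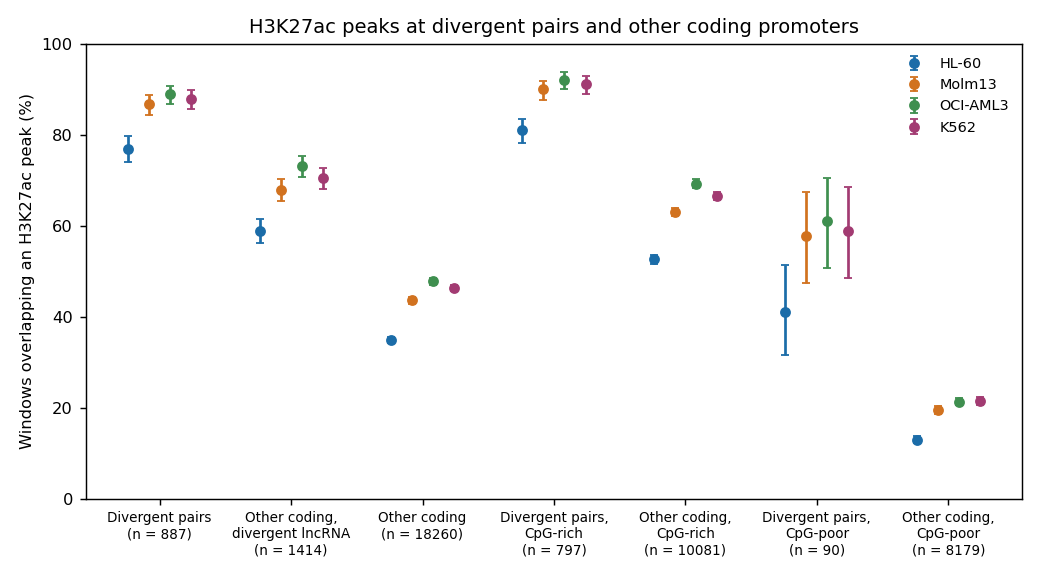
Percentage of promoter windows overlapping an H3K27ac peak (y axis) in each class of window (x axis) and cell line (colours), with Wilson 95% intervals. In all 4 lines the divergent pairs, from 77.0% in HL-60 to 89.0% in OCI-AML3, lay above promoters with a divergent lncRNA and above other coding promoters, and the gap was narrower between CpG-rich windows.

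Sharing across the lines followed the same order. A peak was present in all 4 lines at 670 pairs (75.5%, 95% CI 72.6 to 78.3) and at 31.3% of other promoters. No line had a peak at 74 pairs (8.34%, 6.70 to 10.3), against 45.5% of other promoters. Among windows marked in at least 1 line, the mark was present in all 4 at 82.4% of pairs and 57.4% of the others. Of the 82 pairs marked in 3 lines, 71 lacked a peak in HL-60 only, 7 in K562 only and 4 in Molm13 only. These 71 pairs carried lower-ranked peaks elsewhere. Peaks were ranked within each list by the authors' q-value, and a window was given the rank of its overlapping peak with the highest fold enrichment. The median rank of the 71 pairs was the top 33.5%, 32.5% and 22.6% of the Molm13, OCI-AML3 and K562 lists, whereas for the 670 pairs it was 11.5%, 12.2% and 13.7%. A further 34 pairs (3.83%, against 5.79% of other promoters) were marked in 2 lines. Most often these were Molm13 with OCI-AML3 (15, 1.69% against 2.53%) or OCI-AML3 with K562 (14, 1.58% against 2.28%). A peak in a single line was found at 27 pairs (3.04%, against 8.17% of other promoters). Of these, K562 had 16 (1.80% of pairs, against 4.80% of other promoters), OCI-AML3 8, Molm13 2 and HL-60 1.

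**Figure D2:**
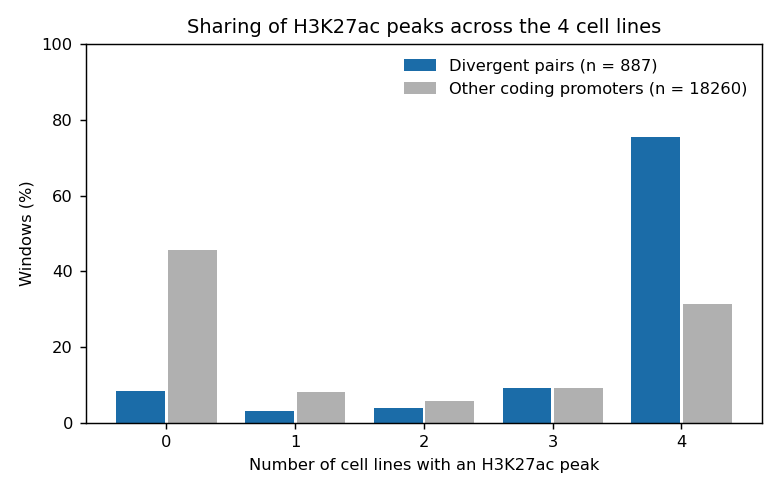
Percentage of windows (y axis) by the number of cell lines with an H3K27ac peak (x axis), for 887 divergent pairs and 18260 other coding promoters. The pairs were gathered at 4 lines (75.5%), whereas the other promoters split between 0 lines (45.5%) and 4 lines (31.3%).

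Next, the peaks at marked windows were compared by the authors' fold enrichment over the local background, using the highest value at each window. The median was 5.61 at marked pairs and 5.11 at marked other promoters in HL-60, and 6.92 and 6.22 in Molm13. In OCI-AML3 it was 4.12 and 3.93, and in K562 3.75 and 3.62. The difference averaged 0.380 ± 0.267 (SD, n = 4 lines) and was positive in 4 of 4 lines (exact sign-flip permutation test, p = 0.13, adjusted p = 0.13). It was small beside the spread among the pairs themselves, whose quartiles were 4.32 and 7.28 (HL-60), 5.39 and 9.07 (Molm13), 3.53 and 4.80 (OCI-AML3) and 3.39 and 4.18 (K562). Fold enrichments are not on a common scale between lists, so the ranks by q-value, which do not follow fold enrichment exactly, are given beside them below. The 10% of peaks with the lowest q-values in a list supplied the peak at 34.4%, 41.2%, 38.4% and 34.2% of marked pairs in HL-60, Molm13, OCI-AML3 and K562, and at 25.3%, 31.2%, 30.5% and 29.0% of marked other promoters. The peaks were also wide. Their median width at pairs was 1487, 2064, 2489 and 3184 bp in HL-60, Molm13, OCI-AML3 and K562, compared with 893, 1141, 1281 and 1290 bp over whole lists and 1300, 1847.5, 2016 and 2729 bp at other marked promoters.

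Across the 670 pairs marked in all 4 lines, fold enrichments were ranked most alike in HL-60 and Molm13 (Spearman's rank correlation 0.668), followed by Molm13 and OCI-AML3 (0.611) and by HL-60 and OCI-AML3 (0.532). Correlations involving K562 were lower, 0.271 with HL-60, 0.310 with Molm13 and 0.403 with OCI-AML3. The same order was seen over 5713 other promoters marked in all 4 lines, with 0.590 for HL-60 and Molm13 and 0.282 for HL-60 and K562. These are descriptions across regions, which share their base composition between lines and are not independent replicates.

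The arrangement of peaks over the starts was then examined. A single peak covered both starts at 548 of 683 marked pairs in HL-60 (80.2%, 95% CI 77.1 to 83.0), and at 88.0%, 91.1% and 90.9% of those in Molm13, OCI-AML3 and K562. For comparison, marked other promoters had their single start under a peak at 73.8% (HL-60), 86.2% (Molm13), 86.4% (OCI-AML3) and 87.4% (K562). At 0 pairs in any line did separate peaks lie over the separate starts. The starts lay a median of 132 bp apart, and peaks at pairs had median widths of 1487 to 3184 bp. This left little room for separate peaks. A peak over the minus-strand start alone was found at 1.15% to 3.25% of marked pairs and over the plus-strand start alone at 1.27% to 3.07%. At the remaining 13.5% in HL-60 and 5.70% to 6.41% in the other lines, the peak lay within the window but over neither start. Among all pairs, TSSK6/ENSG00000258674 was alone in having the same single start covered in all 4 lines. There the peak lay over the plus-strand start, that of a gene without a symbol 679 bp from TSSK6, which encodes a testis-specific serine kinase, with fold enrichments of 3.99 (HL-60), 10.5 (Molm13), 4.27 (OCI-AML3) and 3.88 (K562). TSSK6 also formed a pair with the respiratory chain gene NDUFA13, which starts between them, 188 bp from TSSK6, and the fold enrichments of that pair were the same.

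Where a single peak covered both starts, it reached about as far into the minus-strand gene as into the plus-strand gene. The medians were 697.5 and 708 bp (HL-60), 938 and 930 bp (Molm13), 1132 and 1129 bp (OCI-AML3) and 1444 and 1556 bp (K562), and the peak reached further into the plus-strand gene at 51.6%, 48.9%, 51.3% and 50.4% of pairs. At other promoters with their start under a peak, the peak reached further downstream into the gene than upstream. Medians downstream and upstream were 886 and 543 bp (HL-60), 1119 and 702.5 bp (Molm13), 1296 and 726 bp (OCI-AML3) and 1724 and 981 bp (K562), with the longer side downstream at 68.7% to 74.4% of promoters. Strand is a fixed label of the genome and not a property of the pair. Medians by strand are thus alike over many pairs however lopsided each peak is, and they are no counterpart of upstream and downstream. Without strand, the shorter and longer sides at pairs had medians of 547.5 and 944.5 bp in HL-60 and 1075 and 2049 bp in K562. At other promoters they were 458 and 1018 bp, and 838 and 2026 bp. The shorter side was thus longer at pairs, as it was in Molm13 (707 against 605.5 bp) and OCI-AML3 (867 against 655 bp). The longer side was closer to that of other promoters, with 1321 against 1344 bp in Molm13 and 1522 against 1471 bp in OCI-AML3.

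**Figure D3:**
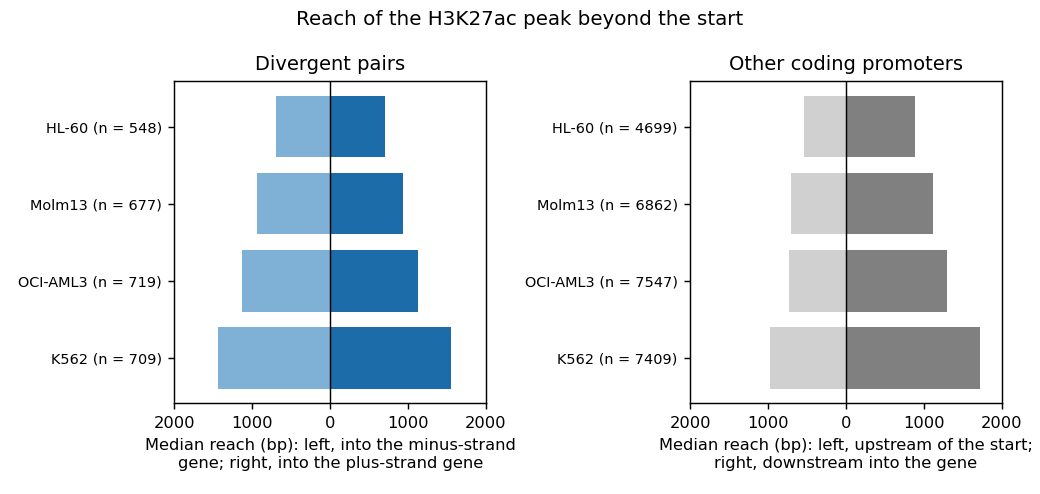
Median distance in bp (x axes) from the start to the edge of the H3K27ac peak in each cell line (y axes), at divergent pairs with both starts under a single peak (left panel, into the minus-strand and plus-strand gene) and at other coding promoters (right panel, upstream and downstream). Bars at pairs were of similar length on both sides, 697.5 and 708 bp in HL-60, which the arbitrary labels of the strands bring about over many pairs. At other promoters the downstream bar was longer in all 4 lines.

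The marked shares lay close together for spacings up to 500 bp. In HL-60 77.5% of pairs up to 100 bp apart were marked, 78.7% of those above 100 and up to 250 bp, 77.9% of those above 250 and up to 500 bp, and 65.8% (95% CI 54.6 to 75.5) of the 76 pairs more than 500 bp apart. In the other lines the first 3 bins lay between 86.1% and 91.7% and the widest between 81.6% and 82.9%. The 76 widest pairs were also less often CpG-rich, 75.0% against 90.9% to 92.4%, and the part of this in their lower share was not tested. Just inside the limit of the rule were PSMB1/TBP (995 bp) and APBA3/MRPL54 (990 bp), marked in all 4 lines, and MS4A6A/MS4A4A (991 bp), a pair of membrane-spanning genes of myeloid cells, marked in Molm13, OCI-AML3 and K562. The nearest outside, TXNDC12/BTF3L4 (1008 bp) and ENSG00000268790/TMEM38A (1024 bp), were marked in all 4. Taking the 77 pairs of starts more than 1000 and up to 2000 bp apart together, 59.7% to 71.4% were marked.

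The pairs were ordered by their lowest fold enrichment over the 4 lists, and 5 of the first 10 joined a histone H2A gene to a histone H2B gene. H2AC15/H2BC15 on chromosome 6 came first, with fold enrichments of 8.36, 9.66, 5.96 and 5.58 in HL-60, Molm13, OCI-AML3 and K562, the order used from here on. By q-value that peak stood in the top 0.123% of the list in K562 and in HL-60 in the top 3.48%. H2BC4/H2AC6 reached the top 0.0587% in K562, with a fold enrichment of 5.87, while in HL-60, at 5.62, it stood in the top 13.6%. The histone peaks were broad: H2BC11/H2AC11 and H2BC12/H2AC12 shared peaks of 18367, 22756 and 24830 bp in Molm13, OCI-AML3 and K562, so that their values in these lines are the same measurement, whereas in HL-60 they had separate peaks of 3531 and 2813 bp. Their K562 peak stood in the top 0.381%. All 5 histone pairs had a higher rank by q-value in K562 than in the other lines, but the way they were chosen favoured this. Fold enrichments at pairs reached only 5.87 in K562 and 7.29 in OCI-AML3, against 19.2 in HL-60 and 19.5 in Molm13. A high lowest value thus called for a high K562 value. In HL-60, H2BC13/H2AC13 stood only in the top 20.0%.

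Of the other pairs among these 10, 4 are described here, and they belonged to other functions. NUDCD2/HMMR, of which HMMR encodes a hyaluronan receptor that also works at the mitotic spindle, had fold enrichments of 8.16, 8.95, 5.25 and 5.72. GIN1/PPIP5K2, whose starts lie 11 bp apart, had 5.42, 10.3, 7.29 and 5.43, and stood in the top 21.6% in HL-60 but the top 1.06% to 2.98% in the other lines. GIN1 derives from the integrase of a retroelement, and PPIP5K2 is an inositol pyrophosphate kinase. HMGB1/USPL1, of which HMGB1 encodes an abundant chromatin protein and USPL1 a SUMO protease, had 5.44, 11.6, 5.27 and 5.21. FAM227B/DTWD1, of which DTWD1 encodes a tRNA-modifying enzyme, had 5.31, 7.62, 5.90 and 5.09.

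**Figure D4:**
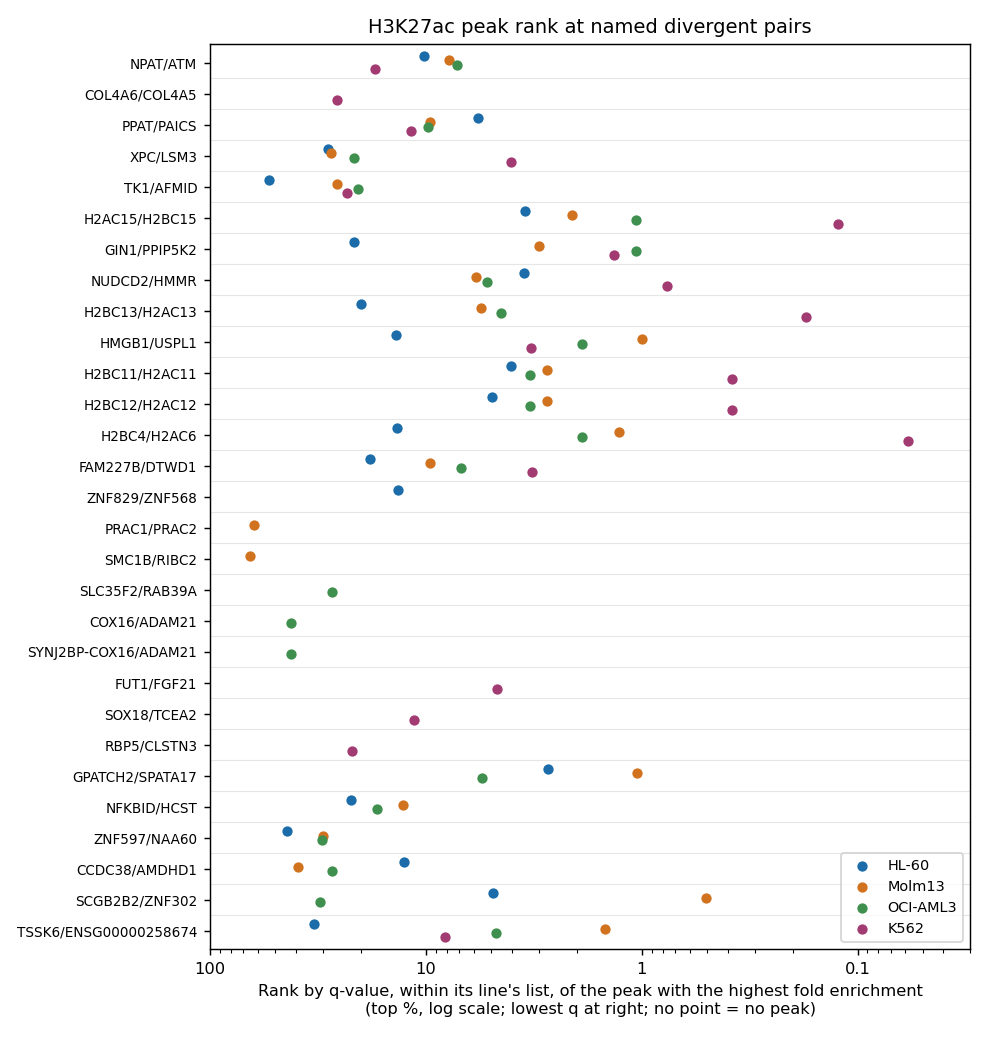
Rank by q-value, within each line's list, of the overlapping H3K27ac peak with the highest fold enrichment (x axis, top percent, log scale, lowest q-values at right) for the named divergent pairs with a peak in any line (y axis), with points coloured by cell line and no point where a line had no peak. The histone pairs, chosen in a way that favoured high K562 values, reached the top 0.0587% to 0.381% in K562. The pairs lower in the plot had a peak in a single line or lacked it in K562.

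Among the classical divergent pairs, those for DNA repair and nucleotide synthesis were marked throughout. NPAT/ATM, which joins a coactivator of histone genes to the DNA damage kinase ATM, had fold enrichments of 6.47, 8.40, 5.12 and 3.59. PPAT/PAICS, whose products act in purine synthesis, had 7.67, 7.77, 4.71 and 4.22. Both pairs had a single peak over both starts in every line. XPC/LSM3, with the nucleotide excision repair gene XPC, ranked lower in the AML lines (top 21.4% to 28.5%) than in K562 (top 4.02%). TK1/AFMID, with thymidine kinase, had 3.56, 5.39, 3.91 and 3.23. By q-value it ranked lowest in HL-60 (top 53.2%), against the top 20.6% to 25.8% in the other lines.

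The collagen IV pairs, which encode chains of basement membranes, stood apart from these. Of the 40 other promoters of collagen genes, 0% were marked in all 4 lines. COL4A4/COL4A3 had no peak in any line although its window was CpG-rich, with a GC content of 73.3% and a CpG ratio of 0.764. COL4A6/COL4A5 had no peak in HL-60, Molm13 or OCI-AML3. In K562 it had a peak of 605 bp with a fold enrichment of 3.69, over the start of COL4A5 but not of COL4A6.

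Gene groups were chosen by symbol or as explicit lists, and the share of their genes in divergent pairs was set beside the 8.56% of all coding genes. It was 39.1% for replication-dependent histones (27 of 69 genes), 29.5% for DNA repair and replication (46 of 156), 24.8% for the respiratory chain (26 of 105) and 21.8% for mitochondrial ribosomal proteins (17 of 78). Of 32 haematopoietic genes, among them SPI1, GATA1, MPO and the globins, 0 started in a pair, but this list was too short to set apart from the 8.56%. Genes of blood cells outside the list, such as the myeloid MS4A6A/MS4A4A, did form pairs. Counts of pairs marked in all 4 lines are to be read beside the 75.5% of all pairs and beside the other promoters of the same group.

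Pairs of the protein synthesis and turnover groups were marked almost without exception. Other promoters of the same groups were often marked in all 4 lines too, with 88.6% for cytosolic and 86.9% for mitochondrial ribosomal proteins. The share was 79.1% for the proteasome, 87.1% for aminoacyl-tRNA synthetases and 53.6% for chaperones. All 11 pairs with a cytosolic ribosomal protein gene were marked in all 4 lines, for example RPL9/LIAS with fold enrichments of 5.90, 11.2, 5.81 and 4.66. BTK/RPL36A, which joins the Bruton tyrosine kinase to a ribosomal protein gene 28 bp away, had 6.54, 6.91, 4.41 and 3.58. Of 18 pairs with a mitochondrial ribosomal protein gene, 17 were marked in all 4, and the other, MRPL10/LRRC46, lacked a peak in HL-60 only. In MRPL46/MRPS11 both genes encode such proteins, and the values ranged from 17.6 in Molm13 to 2.90 in K562, in the order 8.76, 17.6, 5.06 and 2.90. All 7 pairs caught by the proteasome symbols were marked in all 4 lines, although PSME3IP1 in this set encodes an interacting protein and not a subunit. Of 15 chaperone pairs 14 were, with 4 subunits of the chaperonin CCT and TCP1 among them; HSPA1L/HSPA1A, with the stress-induced HSP70 gene HSPA1A, lacked a peak in HL-60 and had 3.15, 3.13 and 4.06 in the others. All 3 pairs with an aminoacyl-tRNA synthetase were marked in all 4.

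Histone, respiratory and DNA repair pairs held more exceptions. At other promoters of these groups, 54.8%, 77.2% and 70.9% were marked in all 4 lines. Of 15 histone pairs 12 were marked in all 4 lines. H2AC1/H2BC1, genes known for their use in the testis, had no peak, H2AC14/H2BC14 had peaks in Molm13 and OCI-AML3 only, within those of H2BC13/H2AC13 by their equal fold enrichments of 8.28 and 5.24, and H3C7/H2BC9 lacked a peak in HL-60. Of 27 pairs with a respiratory chain gene 24 were marked in all 4. NDUFB1/CPSF2 was among the strongest, with 15.1, 14.5, 6.36 and 4.98, whereas ATP5MJ/TDRD9 was unmarked, COX16/ADAM21 was marked in OCI-AML3 alone and NDUFA8/MORN5 lacked a peak in HL-60. Of 46 pairs with a DNA repair or replication gene 39 were marked in all 4. They included UFD1/CDC45, with the replication helicase component CDC45 (16.3, 13.4, 4.85 and 3.66), TMEM258/FEN1, with the flap endonuclease FEN1 (13.2, 12.0, 5.11 and 4.67), and TPRA1/MCM2 (6.53, 5.84, 4.25 and 4.05). PRSS54/GINS3 and RAD51D/FNDC8 were unmarked, and NTHL1/TSC2 was marked in OCI-AML3 (2.32) and K562 (2.83) only.

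The remaining groups are read beside the shares marked in all 4 lines of all pairs (75.5%) and of all other promoters (31.3%). Genes named for the testis (symbols TEX, SPATA, SPACA, TSSK and CATSPER) were in 11 pairs, of which 9 were marked in all 4 lines, while 11.4% of their 88 other promoters were. The partner was often a gene of general use, as in TEX46/KDM1A with the histone demethylase KDM1A (6.06, 6.73, 4.83 and 3.78) and LONP1/CATSPERD with a mitochondrial protease (6.41, 11.3, 5.32 and 4.10). IGSF11/TEX55 was unmarked. Cilia genes, by symbols that also take in many coiled-coil genes, were in 30 pairs, of which 20 were marked in all 4 and 3 in none, compared with 32.6% in all 4 among their 236 other promoters. Zinc finger genes were in 30 pairs, 21 of them marked in all 4, against 42.1% of 475 other promoters. Neither share in pairs was above that of all pairs, and the other promoters of these groups were not below those of all genes. Gaps between pairs and other promoters were also present for chaperones, with 93.3% and 53.6%, and histones, with 80.0% and 54.8%.

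**Figure D5:**
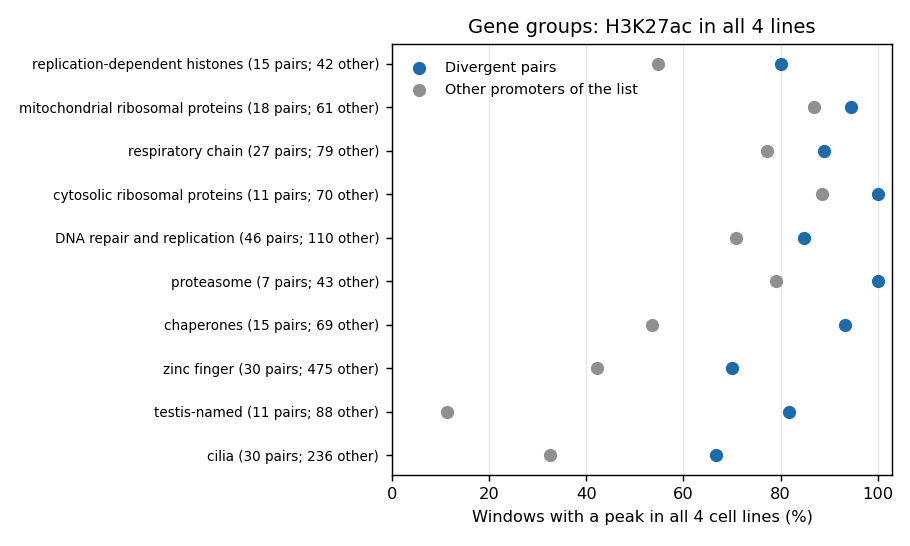
Percentage of windows with an H3K27ac peak in all 4 cell lines (x axis) for gene groups with at least 7 divergent pairs (y axis), at their pairs and at their other promoters. All 11 cytosolic ribosomal and all 7 proteasome pairs were marked, as were 88.6% and 79.1% of the other promoters of these groups. The widest gap was at testis-named genes, 81.8% of pairs against 11.4% of other promoters.

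Pairs that separated the lines were few. Of those with a peak in K562 alone, FUT1/FGF21 had the highest fold enrichment, 3.98 over 4565 bp, and a rank in the top 4.66%. FUT1 encodes the fucosyltransferase that makes the H antigen of red cells, and FGF21 a metabolic hormone, and the window was CpG-poor, with a CpG ratio of 0.127. SOX18/TCEA2, with the endothelial transcription factor SOX18, had 3.97 over the plus-strand start of TCEA2 only, and RBP5/CLSTN3 had 3.77. The AML lines shared 7 pairs that were not marked in K562 (0.789% of pairs, against 1.84% of other promoters). GPATCH2/SPATA17 led them with 10.0, 12.9 and 5.39, in peaks of 815, 988 and 1210 bp that ranked in the top 2.71%, 1.05% and 5.52%. NFKBID/HCST, which joins an atypical NF-κB inhibitor to the adaptor DAP10 of lymphoid and myeloid receptors, lay in much broader peaks of 7160, 14275 and 12194 bp, with 4.98, 6.58 and 3.56, and its window had a CpG ratio of 0.155. SCGB2B2/ZNF302 had 8.49, 15.2 and 3.21, ZNF597/NAA60 3.59, 5.16 and 3.45, and CCDC38/AMDHD1 6.54, 4.45 and 3.26.

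Few pairs had a peak in an AML line alone. ZNF829/ZNF568, a pair of zinc finger genes 25 bp apart, was the 1 pair marked in HL-60 alone, with 6.31 in a peak of 560 bp over both starts that ranked in the top 13.4%. SMC1B/RIBC2, with the meiotic cohesin gene SMC1B, had 3.47 in Molm13, in the top 65.1%, and PRAC1/PRAC2 had 3.61 in the top 62.5%, over neither start. In OCI-AML3 SLC35F2/RAB39A had 3.45 over neither start. COX16/ADAM21, SYNJ2BP-COX16/ADAM21 and SYNJ2BP/ADAM21, which share a gene and a peak, had 3.33. This peak thus counts more than once among the pairs marked in OCI-AML3 alone. With 1 library per line, no test between lines was possible.

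The 74 pairs without a peak in any line differed from the 670 marked in all 4 in base composition more than in spacing. Of these, 63.5% were CpG-rich against 95.1%, and the median CpG ratio was 0.691 against 0.797, while the median distance was 121 bp against 130 bp. They included genes of neurons such as the GABA receptor pair GABRA4/GABRB1, of epithelia such as the tight junction pair CLDN1/CLDN16 and the thyroid oxidase pair DUOX2/DUOXA2, and of germ cells such as the cancer/testis pair MAGEA2/CSAG3. MAGEA2/CSAG3, CSAG2/MAGEA2B and BOLA2/SLX1B lie in near-identical duplicated segments, where reads that map to several places had not been kept, and the part of this in their lack of a peak was not tested. These names were chosen after the values were seen. The 74 pairs were mixed and also held others, such as NELFA/C4orf48, CFAP90/MTRR and PEX11A/WDR93. The share of tissue-restricted genes among them was not counted. The rule used the outermost annotated start of each gene, and at 27 of the 74 (36.5%) a peak in at least 1 line lay within 500 bp of another annotated start of either gene that was itself more than 500 bp outside the pair, in all 4 lines at 14. For unmarked other promoters the figure was 1380 of 8306 (16.6%). A pair offers the starts of both its genes and another promoter those of a single gene, so these shares are not directly comparable. ATP5MJ, GINS3 and RAD51D each had such a peak in all 4 lines, so that the lack of a mark at ATP5MJ/TDRD9, PRSS54/GINS3 and RAD51D/FNDC8 concerned the outermost start and not every start of the gene.

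Motif letters were counted in the promoters of pair genes, from 250 bp before to 50 bp after each start, on both strands. Windows of a pair can overlap and so share matches, and no motif of the set contains another. Among CpG-rich genes, CCGGAAG (ETS factors) was present in 29.0% of 1506 pair genes and 15.8% of 10081 other genes, with 11.9% over all coding promoters. GCATGCGC (NRF1) was present in 9.50% and 5.02% (3.75% of all), TCTCGCGA in 4.52% and 2.02% (1.45%), ACTACAA (ZNF143) in 6.04% and 3.09% (3.12%), and AAGATGGC (YY1) in 6.71% and 3.69% (3.04%). GGGCGG (SP1) was common in both, 76.2% and 74.8% (52.4%), as were CCAAT (NF-Y), with 41.0% and 34.3% (35.9%), and CACGTG (E-box), with 10.8% and 10.0% (8.35%). The TATA box letters TATAAA occurred in 4.38% and 5.31% (10.8%). The GATA factor motif AGATAA was found in 3.05% and 4.19% (8.69%), and GAGGAAGT (PU.1) in 2.39% and 1.88% (2.40%). Among CpG-rich genes of pairs marked in all 4 lines (1205) and in none (86), CCGGAAG stood at 31.8% and 9.30%, NRF1 letters at 10.8% and 3.49%, YY1 letters at 7.97% and 1.16%, ZNF143 letters at 6.06% and 2.33%, and the E-box at 11.3% and 6.98%. Of the other motifs, SP1 letters stood at 74.7% and 80.2%, NF-Y letters at 42.5% and 36.0%, and TCTCGCGA at 4.98% and 4.65%. The TATA box stood at 4.48% and 2.33%, GATA letters at 3.15% and 0%, and PU.1 letters at 2.66% and 2.33%. These are counts of letters, without a test, and the low shares among the 86 genes rest on very few genes each.

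Finally, the dCas9 peak list of K562 cells carrying 4 guide RNAs against LTR2B, a family of retroviral long terminal repeats, was laid over the pairs. Of 887 pairs 1 overlapped a dCas9 peak (0.113%, 95% CI 0.0199 to 0.636), as did 39 of 18260 other promoters (0.214%, 0.156 to 0.292). The pair was ANKRD34A/POLR3GL, of which POLR3GL encodes a subunit of RNA polymerase III. The dCas9 peak lay at chr1:145964531-145964722 with a fold enrichment of 9.70, and the pair was marked by H3K27ac in all 4 lines. H3K27ac in cells with these guides was not analysed here.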

How the data were processed

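H3K27ac ChIP-seq peak lists of 4 cell lines and a dCas9 list of K562 were used, 5 of the 19 samples of the series, grouped by their titles; the other 14 were not analysed here. After trimming (Trim Galore), the authors mapped the reads to hg38 by Bowtie2, retained unique alignments and called peaks by MACS2 at a stated q of 0.05 (broad for histone marks). The submitters' processing notes name Trim Galore 0.4.5, Bowtie2 2.3.4 and MACS2 2.1.1, and the study's methods give another Bowtie2 version. The control library is not given in the sources used here. The deposited columns are a score, the fold enrichment (a ratio), the −log10 p-value and −log10 q-value, and for dCas9 the summit offset. Only positions, fold enrichment and −log10 q-value of the authors' lists entered the results. Between 5.46% and 15.0% of peaks in an H3K27ac list had a q above 0.05.

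Pairs came from GENCODE version 44, and a window was marked when a peak overlapped it by at least 1 bp. Ranks order a list by −log10 q-value, and a window took the rank of its peak with the highest fold enrichment. The 4 differences were tested by an exact two-sided sign-flip permutation test over lines, with Benjamini-Hochberg adjustment, and percentages carry Wilson 95% intervals. Named pairs were the classical examples, the 10 with the highest lowest-of-4 fold enrichment, up to 3 per line marked in that line alone, 5 marked in the AML lines but not K562, pairs with the same single start covered in all 4 lines, unmarked pairs with both genes in lists, and examples from the gene lists; some items that these rules select are not reported here. The pairs, lists and rules were chosen with earlier results of these data known. The alternatives tried were another q limit, equal list lengths, other window, distance and overlap limits, other comparison genes and leaving out each line. The overlap and pair code was tested on simulated data. Software was bedtools 2.31.1, matplotlib 3.10.9, SciPy 1.17.1, pandas 2.3.3, NumPy 2.4.6 and Python 3.11.15.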

Additional observations from a re-analysis of the deposited data

How the results depend on the processing

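Of 155 values recomputed under alternatives, 12 percentages moved by more than their interval and 0 values reversed direction, while every count of pairs stayed within 1.5 times its value. With a −log10 q-value of at least 3, the share of pairs marked fell to 66.5% (HL-60), 81.2% (Molm13), 86.1% (OCI-AML3) and 83.5% (K562), and the share of marked pairs with both starts under a single peak was 84.4% in HL-60 and 90.4% in Molm13. With the 20814 strongest peaks of each list, 83.8% of pairs were marked in Molm13 and 85.9% in OCI-AML3. With at least 50% of the window covered, the shares were 63.0% (HL-60), 78.5% (Molm13), 82.2% (OCI-AML3) and 81.1% (K562). Fewer peaks count under each of these by construction. Pairs marked in all 4 lines fell from 670 to 564 at the stricter q-value and to 522 with 50% coverage, and pairs marked in none rose from 74 to 97 and 109, which lies outside the counting intervals of 670 and 74. The mean difference between pairs and other promoters lay between 40.4 and 45.2 percentage points over all alternatives. Leaving out each line in turn gave 41.6 to 42.2 points (exact sign-flip permutation test, p = 0.25, the smallest that 3 lines allow). Pairs marked in all lines numbered 670 to 741 when a line was left out, the highest without HL-60, and unmarked pairs 75 to 90, the highest without K562. Restricting to genes with a symbol, counting each locus once and leaving out a line for these counts were chosen after seeing the data. No paired analysis was possible because a cell line was represented by a single library, so that no replicate numbers were shared. Unknown depth limits any reading of an absent peak, most of all in HL-60, whose list was the shortest.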
